A study of Mus musculus with 8 samples.

Results

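The genes described here are 39 proliferation and S/M phase genes, the transcripts that a mouse cell uses to copy its DNA and to divide, among 55487 genes of the deposited table. They were chosen by name, by matching a list of DNA replication and mitosis symbols to the gene identifiers, a list drawn up with earlier results of these data known. By the labels, the RNA came from MC38 tumors, and within them from their stromal vascular fraction. This is what remained once the implanted MC38 cells, a murine colon cancer line that carried green fluorescent protein, had been sorted away. The tumors were grown under the skin of Bmal1+/+ mice or of Bmal1-/- mice, in which the clock transcription factor BMAL1 is deleted in the germline and so in every host cell but not in the cancer cells. There were 4 libraries per genotype label, and both labels share the implanted line, the sort and the absence of any drug treatment in the labels. The mouse strain of the breeding founders, the age and sex of the mice and the hour of collection are not given in the sources used here, which also do not say whether each library is 1 mouse, so p-values measure the spread between these libraries. The study asked what loss of Bmal1 in the host does to the stromal cells of a tumor, and the comparison below reads the cell division transcripts in that design.

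Before a cell divides it loads the MCM helicase on its DNA, raises the supply of deoxynucleotides and copies its genome in S phase. It then activates CDK1 with cyclins A and B, condenses its chromosomes, pulls the sister chromatids apart on the spindle and separates the daughter cells in cytokinesis. The genes for these steps are low or silent in resting cells. E2F factors switch on the S phase genes, and the MuvB complexes with B-MYB and FOXM1 switch on the mitotic genes. The transcripts are therefore known as markers of dividing cells in tissue. In bulk RNA fewer dividing cells and less RNA per dividing cell cannot be told apart.

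Libraries held between 14054825 and 18449143 counts, and a count of 3, taken as the floor, was worth between 0.167 and 0.213 CPM (the unit used below, counts scaled to a common library total and by TMM factors). This floor covers counting error only. The targeted gene went against the label: Bmal1 (Arntl) had 30.1 CPM or more where the label is Bmal1-/- and 2.71 CPM or less where it is Bmal1+/+. The genotypes named below are therefore those of the labels, and each "lower" or "higher" is the direction between the labels. All of these directions would turn if the labels had been exchanged, which was not tested. Whether the deleted allele keeps a counted transcript was not tested either, and counts per gene do not tell the 2 apart. Xist had at least 843.8 CPM in libraries labelled Bmal1+/+ and at most 0.749 CPM in the others, and the summed level of Eif2s3y, Uty, Kdm5d and Ddx3y on chromosome Y was 0 in libraries labelled Bmal1+/+ and 121.1 to 144.5 CPM in the others, so sex and label cannot be told apart. The sum of 12 hepatocyte markers was 100858.3 to 114478.1 CPM in libraries labelled Bmal1+/+ and 56342.7 to 72649.7 CPM in the others. Of this, Alb alone had 64317.6 to 71872.0 and 12744.3 to 18829.8 CPM in the same order. The median log2 fold change of the 12 was -0.02, with 1 lower (Alb) and 2 higher, so the list as a whole did not share the gap in the sum. Fap, a marker of activated fibroblasts, had at most 7 counts in any library. The tissue that the labels give is thus in doubt, and the values below are those of RNA rich in hepatocyte transcripts. Replicate 4 of the libraries labelled Bmal1-/- stood apart from the other 3, with a chi-square per degree of freedom of 129 to 150 against them, while other pairs with the same label had 18 to 40, and values without it are given where it changes a call of a member or of a named marker.

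Before the values, the promoters of the members that changed are shown, because sequence elements in them are known to set the S phase genes apart from the mitotic genes. RefSeq windows of 300 bases on GRCm38.p6, from 250 bases before to 50 after the start, were at hand for 32 of the 39 members. In the windows below, which belong to 4 of the members that fell and to the member that rose, capitals mark every match, on either strand, to the CHR (TTTGAA or TTCGAA, an element bound by MuvB complexes), the CCAAT box (CCAAT, bound by NF-Y), an E2F site (TTTCCCGC, TTTGGCGC, TTTCGCGC or TTTGCCGC) or the E-box CACGTG, the element that CLOCK and BMAL1 bind.
Kif23 (chr9:61946750-61947049, minus strand): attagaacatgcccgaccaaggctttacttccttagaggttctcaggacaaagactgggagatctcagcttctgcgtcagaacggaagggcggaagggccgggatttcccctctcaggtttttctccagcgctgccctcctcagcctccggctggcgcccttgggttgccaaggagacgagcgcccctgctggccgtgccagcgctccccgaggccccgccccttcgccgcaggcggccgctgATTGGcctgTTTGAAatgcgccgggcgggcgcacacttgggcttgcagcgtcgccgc
Mki67 (chr7:135716330-135716629, minus strand): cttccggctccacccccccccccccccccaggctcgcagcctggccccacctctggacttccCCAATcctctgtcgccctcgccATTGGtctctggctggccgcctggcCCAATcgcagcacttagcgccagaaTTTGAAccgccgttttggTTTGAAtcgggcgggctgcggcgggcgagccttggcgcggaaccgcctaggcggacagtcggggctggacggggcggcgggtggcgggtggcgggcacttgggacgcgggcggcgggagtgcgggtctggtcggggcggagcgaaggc
Top2a (chr11:99024140-99024439, minus strand): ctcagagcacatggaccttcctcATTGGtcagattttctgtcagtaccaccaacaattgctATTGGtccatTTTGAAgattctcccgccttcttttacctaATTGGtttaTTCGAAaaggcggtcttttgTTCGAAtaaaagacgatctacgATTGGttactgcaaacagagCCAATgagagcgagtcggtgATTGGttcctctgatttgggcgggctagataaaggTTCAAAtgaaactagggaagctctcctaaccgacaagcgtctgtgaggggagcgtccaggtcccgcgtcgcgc
Pcna (chr2:132253131-132253430, minus strand): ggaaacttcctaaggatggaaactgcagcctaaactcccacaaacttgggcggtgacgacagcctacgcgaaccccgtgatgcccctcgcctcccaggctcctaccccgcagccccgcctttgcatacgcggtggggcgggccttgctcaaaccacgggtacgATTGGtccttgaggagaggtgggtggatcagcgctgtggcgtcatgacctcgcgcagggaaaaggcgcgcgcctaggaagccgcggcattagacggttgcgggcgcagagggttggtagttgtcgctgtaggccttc
Mcm7 (chr5:138171834-138172133, minus strand): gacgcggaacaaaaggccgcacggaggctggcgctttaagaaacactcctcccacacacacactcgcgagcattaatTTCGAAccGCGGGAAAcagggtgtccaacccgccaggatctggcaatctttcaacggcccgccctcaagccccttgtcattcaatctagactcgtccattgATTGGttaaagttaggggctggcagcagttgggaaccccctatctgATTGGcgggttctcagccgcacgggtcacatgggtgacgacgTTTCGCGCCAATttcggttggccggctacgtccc

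The windows of Kif23, Mki67 and Top2a hold 1, 2 and 4 CHR matches, and each of the 5 windows holds at least 1 CCAAT box. Pcna has a CCAAT box alone, Mcm7 has a CHR, CCAAT boxes and 2 E2F sites in the window shown and a CCAAT box alone in its other window, and the window of Tk1, another member that fell, has no match to any of the 4 motifs. Over all members with a window, 18 of 32 (56.2%) had a CHR, against 21.7% of 27025 genes with a window and 19.2% of all windows. The CHR was in 16 of 20 members with a role in G2, mitosis or chromosome structure and in 2 of 11 with a role in G1/S or S phase, namely Mcm2 and Mcm7. CCAAT boxes were in 26 of 32 members (81.2%, against 41.1% of genes and 37.4% of windows). E2F sites were in 5 of 32 (15.6%, against 2.60% of genes and 2.26% of windows), and 4 of these 5 are MCM genes, the other being Cdk1. The E-box was in 1 of 32 members, Tyms (3.12%, against 8.09% of genes and 7.15% of windows). In 2 places matches of different motifs overlapped. A match describes the letters of a window and is no evidence of binding in these cells.

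**Figure D1:**
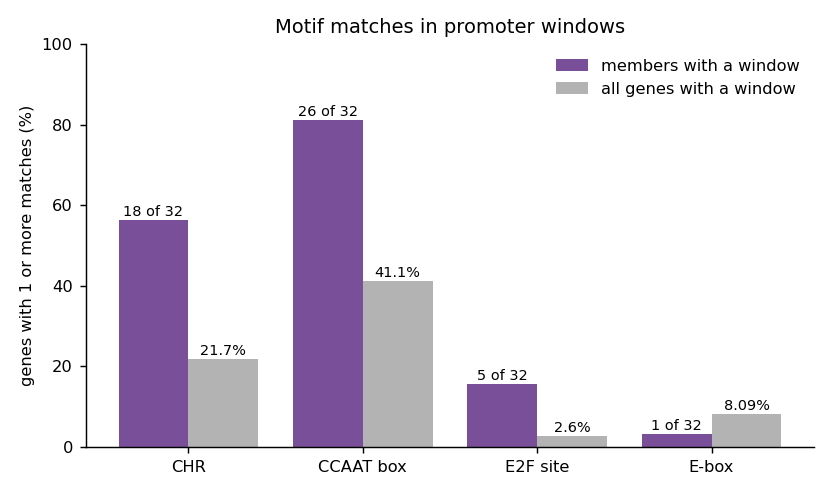
Share of genes with 1 or more matches to each motif in the 300-base promoter window, for the 32 members with a window (purple) and for all genes with a window (gray). The CHR (18 of 32) and the CCAAT box (26 of 32) stand beside 21.7% and 41.1% of all genes, and the E-box (1 of 32) beside 8.09% of all genes, with no test of the difference.

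All 39 members had a count in at least 1 library, but as a group they were near the lower end of what these libraries measured. Per length, on the deposited FPKM scale (fragments scaled to exon length and library total), the median member had 0.195 FPKM over the 8 libraries and the median tested gene 2.39 FPKM. Only Pcna, Tk1, Rrm2, Mcm7, Mcm4 and Mcm6 reached 1 FPKM, and 9 members were under 0.1 FPKM. Pcna, the sliding clamp that holds DNA polymerases on the template, was the highest at 7.07 FPKM, above 74.9% of tested genes, followed by the thymidine salvage kinase Tk1 at 4.04 FPKM. The S phase genes led the order, and the mitotic genes filled its lower part, with Cenpf at 0.0214 FPKM and Ccnb1 at 0.0126 FPKM at its end. Many neighbours in this order overlap in their range over libraries, for example Rrm2 at 1.78 FPKM and Mcm7 at 1.66 FPKM.

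**Figure D2:**
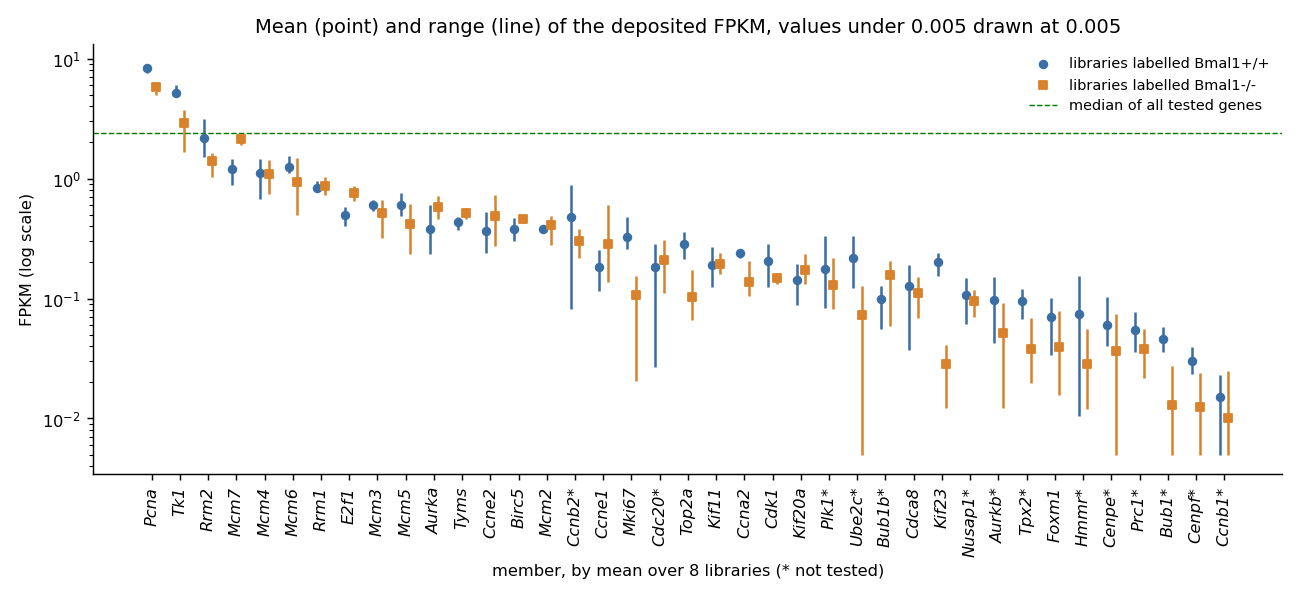
Deposited FPKM of all 39 members on a log axis, with the mean (point) and range (line) over 4 libraries for the libraries labelled Bmal1+/+ (blue circles) and for those labelled Bmal1-/- (orange squares); values under 0.005 are drawn at 0.005. Pcna and Tk1 are the members whose mean lies above the median tested gene at 2.39 FPKM in both labels, and members with an asterisk had too few counts for the test.

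The filter on low counts let 25 members through (64.1%), of 14353 genes tested, and kept 14 out. Of the 25, 6 were lower in the libraries labelled Bmal1-/- with an adjusted p below 0.05 (edgeR's quasi-likelihood test, Benjamini-Hochberg over all genes), namely Kif23, Mki67, Top2a, Tk1, Ccna2 and Pcna, and 1 was higher, Mcm7. The 6 lower members are 24% of those tested, beside 16.2% of all tested genes called lower, and the 1 higher member is 4%, beside 14.9% of all tested genes called higher. Many genes of any kind thus differed between the labels, and the shares of the members are to be read against that background. Among genes with a mean under 5 CPM, where 19 of the tested members lie, the background was 18.1% lower and 8.97% higher, and the members had 4 calls lower (21.1%) and 0 higher. Kif23 passed the filter only through the libraries labelled Bmal1+/+, so that it could hardly enter the test without differing.

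The median log2 fold change of the 25 tested members was -0.215, beside 0.02 for all tested genes, and 15 of the 25 lay below 0, beside 47.9% of all tested genes. The libraries did not overlap between labels for 6 tested members that were lower, beside 16.8% of all tested genes, and for 2 that were higher, Mcm7 and E2f1, beside 16.7%. By the rule of the study's methods, an absolute log2 fold change above 1 with an unadjusted p below 0.05, 3 members were lower (Kif23, Top2a and Mki67), beside 8.71% of tested genes, and 0 were higher, beside 5.41%. Under the adjusted p of the main test 1 member was higher, as given above.

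**Figure D3:**
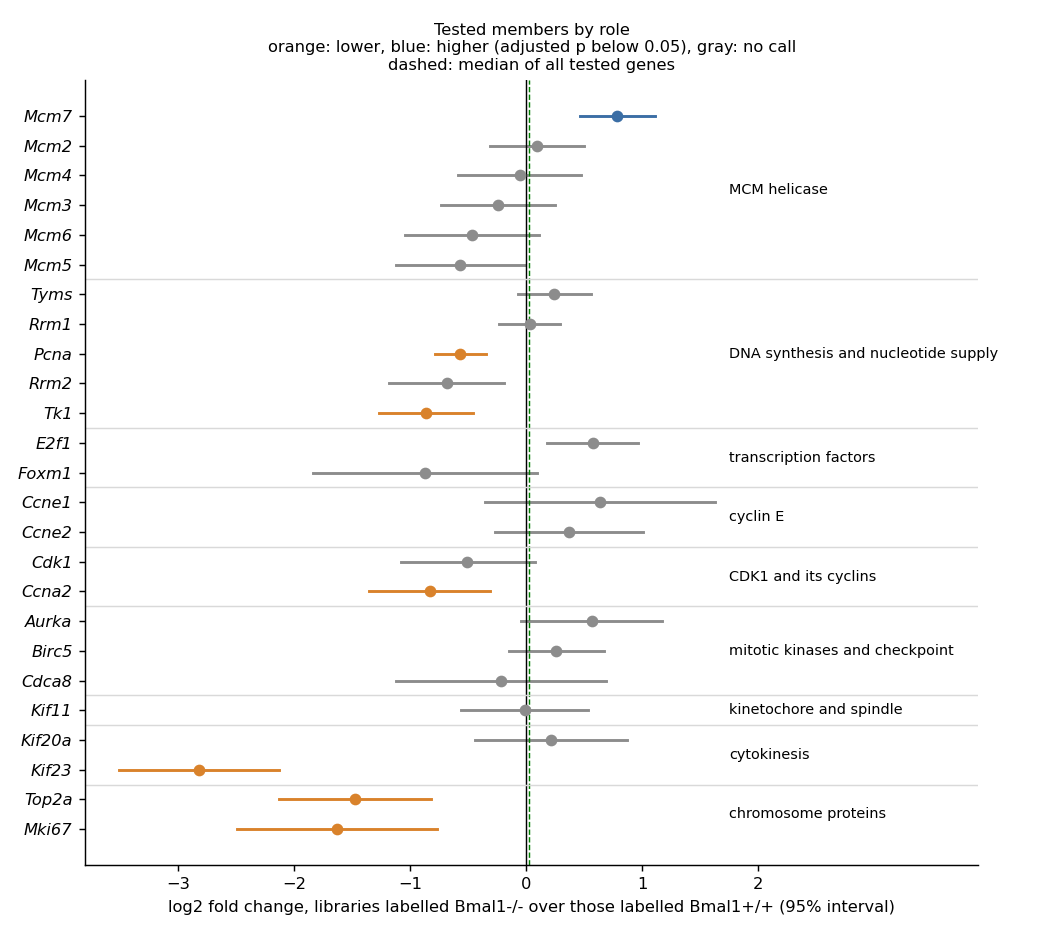
Log2 fold change with its 95% interval for the 25 tested members, ordered by role, libraries labelled Bmal1-/- over those labelled Bmal1+/+. The intervals are normal ones and narrower than the test implies, so calls are read from the adjusted p. The 6 members called lower (orange) run from Pcna at -0.57 to Kif23 at -2.82, Mcm7 (blue) is at 0.79, and the 18 others (gray) have no call; the dashed line is the median of all tested genes at 0.02.

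The 6 MCM genes encode the ring that unwinds DNA at the replication fork, and they did not move together. Mcm7 had 9.87, 7.88, 5.98 and 9.35 CPM in replicates 1 to 4 labelled Bmal1+/+ and 15.2, 14.1, 12.8 and 14.99 CPM in the libraries labelled Bmal1-/-. All 4 of the latter lay above all 4 of the former, and the log2 fold change was 0.79 (SE 0.16, edgeR adjusted p = 0.0059), a 1.72-fold higher level. It was called in each of its 20 alternative fits. The other 5 subunits had no call, with log2 fold changes from -0.57 for Mcm5 (adjusted p = 0.16) to 0.10 for Mcm2 (adjusted p = 0.75), and their libraries overlapped between labels. For Mcm2, whose 95% interval ran from -0.308 to 0.500, and Mcm4, from -0.585 to 0.477, these data allow changes of either sign. In sum the MCM genes had 31.0 ± 3.32 CPM in libraries labelled Bmal1+/+ and 33.4 ± 6.16 CPM in the libraries labelled Bmal1-/- (SD, n = 4 each).

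The call of Mcm7 stands beside that of its neighbours on chromosome 5. Mcm7 (ENSMUSG00000029730, chr5:138164583-138172422, minus strand, GRCm38) shares 321 exon bases with Ap4m1 and 64 with Cops6, both on the opposite strand, and it hosts the miRNA genes Mir25, Mir93 and Mir106b. Cops6 had a log2 fold change of 0.91 (edgeR adjusted p = 1.4e-04) and 71.2 CPM in the mean of libraries labelled Bmal1+/+, and Ap4m1 had 0.53 (adjusted p = 0.0051). Whether the counting used strand is not stated, so reads of these genes cannot be told apart in the shared bases, and their part in the value of Mcm7 was not tested.

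DNA synthesis and nucleotide supply held the most abundant members and 2 calls lower. Tk1, which salvages thymidine for DNA synthesis, had 44.6, 36.7, 36.3 and 36.8 CPM in libraries labelled Bmal1+/+ and 26.7, 24.6, 20.9 and 12.6 CPM in the libraries labelled Bmal1-/-. No library of one label reached the other, replicate 4 of the latter was the lowest of all, and the log2 fold change was -0.86 (SE 0.21, edgeR adjusted p = 0.011). Without that replicate it was -0.68 (adjusted p = 0.0041). Tk1 shares 83 exon bases with Afmid on the opposite strand, an enzyme of tryptophan breakdown with 121.5 CPM in the mean of libraries labelled Bmal1+/+ and a log2 fold change of -1.10 that had no call (adjusted p = 0.087), and its part in the value of Tk1 was not tested.

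Pcna had 30.2, 27.7, 28.2 and 32.8 CPM in libraries labelled Bmal1+/+ and 16.92, 20.01, 21.99 and 21.44 CPM in the libraries labelled Bmal1-/-. The labels did not overlap, the spread within each was narrow, and the log2 fold change was -0.57 (SE 0.11, edgeR adjusted p = 0.0048), a 1.48-fold lower level. Its processed pseudogene Pcna-ps2, which can share reads with it, had 8.28 and 6.65 CPM in the means of the labels and no call (adjusted p = 0.14). The 3 other members of the role had no call by edgeR's quasi-likelihood test. The subunits of ribonucleotide reductase, which makes deoxynucleotides, differed in value: the small subunit Rrm2 had a log2 fold change of -0.68 (adjusted p = 0.065) and the large subunit Rrm1 of 0.03 (adjusted p = 0.88, 95% interval -0.235 to 0.297). Rrm2 passed the threshold in 4 of its 20 alternative fits, those of DESeq2 (adjusted p = 0.038), the likelihood ratio test (0.042) and the exact test (0.046) of edgeR, and the fit without replicate 3 of label Bmal1+/+ (0.033), and with replicate 2 of label Bmal1+/+ at 12.1 CPM against 5.58 to 8.74 CPM in the others its spread was wide. Thymidylate synthase, Tyms, had 0.25 (adjusted p = 0.27). In sum the 5 genes, with Tk1 and Pcna included, had 86.8 to 94.8 CPM in libraries labelled Bmal1+/+ and 54.4 to 68.1 CPM in the others.

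**Figure D4:**
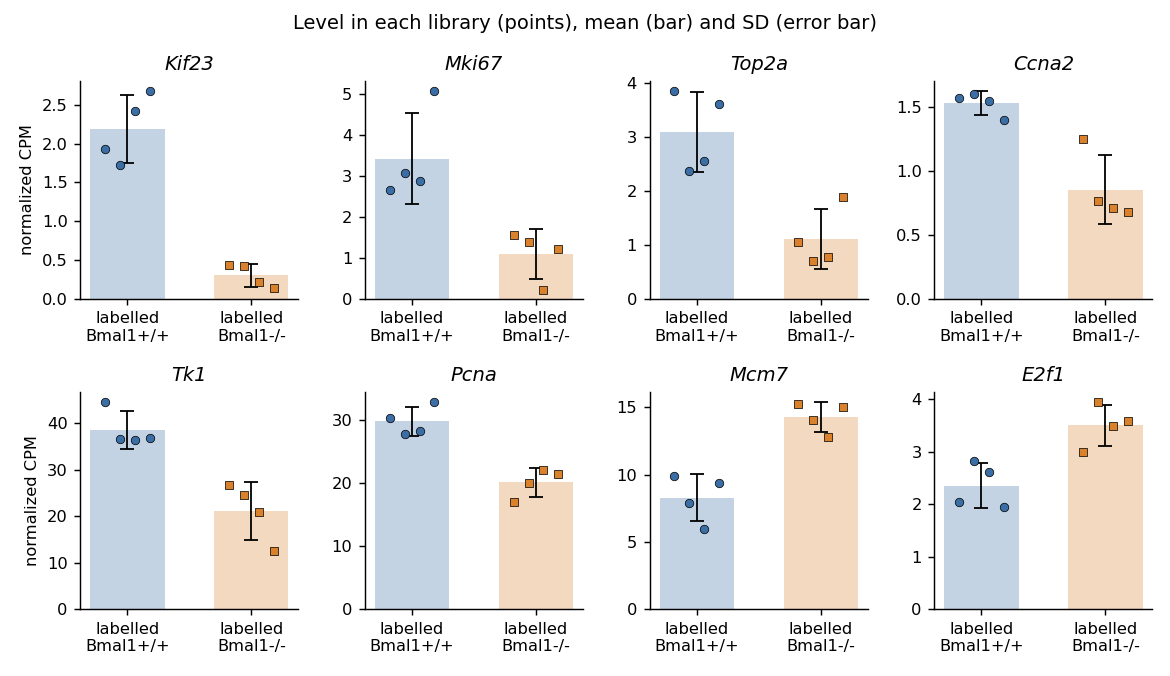
Normalized CPM in each library (points), mean (bar) and SD (error bar, n = 4) for the 7 members with a call and for E2f1, libraries labelled Bmal1+/+ in blue and those labelled Bmal1-/- in orange. The 8 panels are all the tested members whose labels do not overlap. Over all tested genes, 16.8% were lower and 16.7% higher without overlap. E2f1 had an edgeR adjusted p of 0.052 and is shown as the member nearest to a call.

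The 2 transcription factors and the 2 cyclins of G1/S had no call in the fit of all libraries, and 1 of the 4, E2f1, had an unadjusted p below 0.05 and was called by the exact and likelihood ratio tests of edgeR and by limma-voom but not by DESeq2. E2f1, which switches on S phase genes, had 2.05, 2.82, 2.62 and 1.95 CPM in libraries labelled Bmal1+/+ and 3.00, 3.95, 3.49 and 3.60 CPM in the libraries labelled Bmal1-/-. The labels did not overlap, and its log2 fold change of 0.57 missed the threshold (SE 0.20, edgeR adjusted p = 0.052), while 6 of its 20 alternative fits passed it. Foxm1, the forkhead factor of the mitotic genes, had 0.650 ± 0.257 and 0.355 ± 0.237 CPM (SD, n = 4 each), a log2 fold change of -0.87 (adjusted p = 0.21), with only 43 and 21 counts in sum. Cyclin E, the partner of CDK2 at S phase entry, had 0.64 for Ccne1 (adjusted p = 0.37) and 0.37 for Ccne2 (adjusted p = 0.42). For Ccne1 replicate 4 of the libraries labelled Bmal1-/- had 34 counts and the other 3 had 8, 13 and 8, and without it the log2 fold change was -0.06 (adjusted p = 0.92).

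CDK1 and cyclins A and B drive cells through G2 into mitosis, and Ccna2 was the one of these 4 members with a call. It had 26, 25, 23 and 25 counts in libraries labelled Bmal1+/+ and 20, 11, 10 and 10 counts in the libraries labelled Bmal1-/-. In CPM the labels did not overlap, with 1.39 to 1.601 and 0.678 to 1.25 CPM, and the log2 fold change was -0.83 (SE 0.26, edgeR adjusted p = 0.038). This call rests on all 8 libraries: leaving out any of the 4 libraries labelled Bmal1+/+ gave an adjusted p of 0.055 to 0.085, replicates 2, 3 and 4 of the other label gave 0.098, 0.086 and 0.086, and only leaving out replicate 1 of that label, its highest, kept the call (0.018). Ccna2 shares 510 exon bases with Exosc9 on the opposite strand, which was higher (log2 fold change 0.48, adjusted p = 0.041). Cdk1 had 90 and 57 counts in sum and a log2 fold change of -0.51 (adjusted p = 0.22, 95% interval -1.08 to 0.0738). Ccnb1 and Ccnb2 were not tested, and Ccnb1 had 0 to 3 counts in every library, at or under the floor.

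Of the 7 mitotic kinases and checkpoint genes, 3 were tested, and 0 had a call by edgeR in the fit of all libraries, by DESeq2 or at an unadjusted p below 0.05. Aurka, the kinase of spindle poles, had a log2 fold change of 0.56 (adjusted p = 0.20), and without replicate 4 of label Bmal1+/+, its highest library of that label at 2.39 CPM, it was 0.89 (adjusted p = 0.045). Survivin, Birc5, and borealin, Cdca8, which sit with Aurora B in the chromosomal passenger complex, had 0.26 (adjusted p = 0.38) and -0.21 (adjusted p = 0.75). Aurora B itself (Aurkb), the master mitotic kinase Plk1 and the checkpoint proteins Bub1 and Bub1b had too few counts. Bub1 had 5, 3, 3 and 5 counts in libraries labelled Bmal1+/+ and 2, 2, 0 and 0 in the others. Bub1b had more counts in the libraries labelled Bmal1-/- in sum (45 against 31). Birc5 and Tk1 lie 23158 bases apart on chromosome 11, and of this pair Tk1 alone had a call.

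The role of cytokinesis held the member with the largest log2 fold change of the 25 tested, Kif23. It passed the filter only through the libraries labelled Bmal1+/+ and could hardly be tested without differing, so its rank is not read as a result. Kif23, the kinesin of the centralspindlin complex that builds the midzone between separating chromosomes, had 32, 27, 36 and 48 counts in libraries labelled Bmal1+/+ and 7, 6, 3 and 2 counts in the libraries labelled Bmal1-/-. This is 1.93, 1.73, 2.42 and 2.67 CPM against 0.437, 0.415, 0.214 and 0.136 CPM, without overlap between the labels. The log2 fold change was -2.82 (SE 0.35, edgeR adjusted p = 3.7e-04), a 7.07-fold lower level. In its 19 alternative fits it ran from -3.06 to -1.22 with an adjusted p of at most 0.0049. Because of the filter, neither the lack of overlap nor these adjusted p-values are read as support for a difference. Kif23 (ENSMUSG00000032254) lies at chr9:61915905-61946774 on the minus strand of GRCm38. Its relatives did not share this value: Kif20a, the kinesin that brings the passenger complex to the midzone, had a log2 fold change of 0.21 (adjusted p = 0.66), and Prc1, which bundles midzone microtubules, was not tested and had 56 and 34 counts in sum. Kif20a shares 1271 exon bases with Cdc23, which was higher (0.54, adjusted p = 0.020), and Prc1 shares 911 with Rccd1, which was higher too (1.06, adjusted p = 0.0030).

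The chromosome proteins fell together. Top2a, the topoisomerase that untangles sister DNA, had 64, 37, 38 and 65 counts in libraries labelled Bmal1+/+ and 17, 10, 11 and 28 counts in the libraries labelled Bmal1-/-. The labels did not overlap at 2.37 to 3.85 and 0.693 to 1.90 CPM, and the log2 fold change was -1.48 (SE 0.34, edgeR adjusted p = 0.0089), called in each of its 20 alternative fits. Mki67, which encodes the proliferation marker Ki-67 that coats mitotic chromosomes, had 44, 48, 43 and 91 counts and 25, 20, 3 and 18 counts in the same order. It was 2.65 to 5.07 and 0.214 to 1.56 CPM, again without overlap, with a log2 fold change of -1.63 (SE 0.44, edgeR adjusted p = 0.019). Replicate 4 of label Bmal1+/+ carried much of the level, and without it the log2 fold change of Mki67 was -1.38 (adjusted p = 0.055). Without replicate 4 of the libraries labelled Bmal1-/-, it was -1.68 (adjusted p = 0.030), and that of Top2a was -1.86 (adjusted p = 0.0018).

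Spindle, kinetochore and APC/C members were mostly below the filter. Kif11, the motor that separates spindle poles, was the 1 of 6 kinetochore and spindle members tested, with 1.54 ± 0.465 and 1.53 ± 0.310 CPM (SD, n = 4 each) and a log2 fold change of -0.01 (edgeR adjusted p = 0.98, 95% interval -0.558 to 0.537). Of the 14 members not tested in the whole list, none had more than 22 counts in any library, and 8 of their 112 values were 0. In sum over the label, 12 of the 14 had more counts in libraries labelled Bmal1+/+, for example the spindle assembly factor Tpx2 (45 and 16), the kinetochore protein Cenpf (36 and 13), the hyaluronan receptor and spindle protein Hmmr (30 and 10) and Ube2c, the ubiquitin-conjugating enzyme of the APC/C (41 and 12). These examples have some of the widest ratios. The counts are raw, and library totals were 14783346 to 18449143 in label Bmal1+/+ and 14054825 to 15624815 in the other. Scaled to CPM, the 14 summed to 5.25 to 9.58 and 3.56 to 5.47, which overlap. No share over other genes kept out by the filter was taken, so the 12 are not read as a result about the members. Of the 14, 2 had no overlap between labels, Bub1 and Cenpf, beside 16.8% of all tested genes that were lower without overlap. Both lie at or near the floor, with 3 to 5 against 0 to 2 counts for Bub1 and 7 to 13 against 0 to 6 for Cenpf. With no filter 0 of the 14 were called by edgeR in either direction, while 2, Tpx2 and Ube2c, had an unadjusted p below 0.05 (adjusted p = 0.080 and 0.16). The APC/C activator Cdc20 had 28 counts in both labels.

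**Figure D5:**
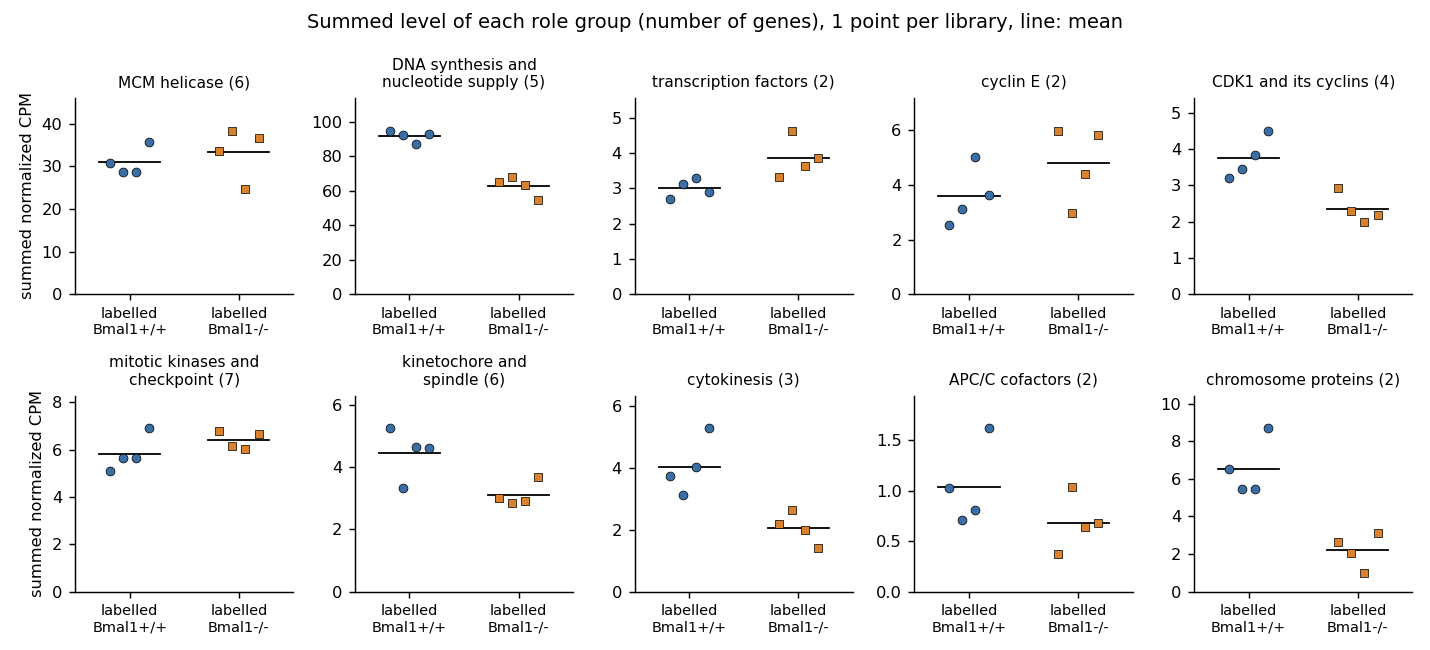
Summed normalized CPM of each role group, with 1 point per library and a line at the mean; each axis starts at 0 and the scales differ. The sums of DNA synthesis, CDK1 and its cyclins, cytokinesis and chromosome proteins are lower without overlap in label Bmal1-/- (orange) than in label Bmal1+/+ (blue). These sums include Tk1, Pcna, Ccna2, Kif23, Top2a and Mki67, the members called lower. In the DNA synthesis, CDK1 and cytokinesis groups every member without a call overlapped between the labels, so these sums are not read as changes of the whole role. The sums of the MCM helicase, cyclin E, mitotic kinases, kinetochore and APC/C groups overlap. That of the 2 transcription factors is higher by a narrow gap, at least 3.31 CPM against at most 3.29 CPM. Its members went opposite ways, with E2f1 higher and Foxm1 lower in the mean.

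Added up over all 39 members, the level was 148.1 to 167.0 CPM in libraries labelled Bmal1+/+ and 110.3 to 131.2 CPM in the libraries labelled Bmal1-/-, a log2 ratio of means of -0.35 with no test. Tk1 and Pcna gave 21.6% and 18% of that level, and without Tk1 the sums were 111.1 to 130.2 and 89.4 to 106.6 CPM, a log2 ratio of -0.215. No sum without both Tk1 and Pcna was taken. Of the 25 tested members 18 had no call, so the gap in the sum is not read as one shared by the members. The 2 chromosome proteins had the lowest log2 ratio of the role sums (-1.56), followed by cytokinesis (-0.97). Kif23 was the larger part of the cytokinesis sum in libraries labelled Bmal1+/+, so that ratio is not read as a result about the role. Kif20a and Prc1, the other members of that role, overlapped between the labels. Replicate 4 of label Bmal1+/+ had the highest value of its label for 10 of the 25 tested members (40%, against 27.4% of all tested genes), and replicate 3 of the libraries labelled Bmal1-/- had the lowest value of its label for 12 (48%, against 29.6%), and most members had another library at the extreme.

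A wider list of 113 other genes of the same processes gave a mixed picture. Of these, 80 were tested, 9 were lower (11.2%) and 5 higher (6.25%), shares that lie under the 16.2% and 14.9% of all tested genes, and their median log2 fold change was 0.05. The smallest adjusted p was that of Ect2, the exchange factor that acts with centralspindlin at the cleavage furrow. Ect2 had 6.32, 7.81, 3.49 and 6.63 CPM in libraries labelled Bmal1+/+ and 0.874, 1.32, 1.28 and 1.49 CPM in the others, with no overlap (log2 fold change -2.29, SE 0.29, edgeR adjusted p = 3.7e-04). It was the 1 call among 6 tested of 18 mitotic kinesins and cytokinesis genes. Of 12 condensin and sister separation genes, 7 were tested and 2 were lower, the condensin subunits Ncapg2 (-1.43, adjusted p = 0.0070) and Smc2 (-0.63, adjusted p = 0.030). Of 23 kinetochore and checkpoint genes, 11 were tested and 2 were lower, Spc25 (-1.21, adjusted p = 0.012) and Zwint (-0.30, adjusted p = 0.045).

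Replication factors of the wider list went both ways. Of 25 DNA polymerase and fork genes, 24 were tested, 2 were lower and 3 higher. Among the lower were DNA ligase I, Lig1 (-0.87, edgeR adjusted p = 0.011), and the catalytic subunit of polymerase alpha, Pola1 (-0.89, adjusted p = 0.023). The clamp loader subunit Rfc5, which helps to load PCNA, was higher with 5.72, 4.99, 7.26 and 6.57 CPM in libraries labelled Bmal1+/+ and 14.2, 12.0, 12.2 and 10.3 CPM in the others (0.99, adjusted p = 0.0015). Of 18 origin factors, 15 were tested and 0 had a call by edgeR or DESeq2, with 2 at an unadjusted p below 0.05 and 1 called by limma-voom (Gmnn and Gins1, and Gins1, named after their values were seen). Mcm10, the one of them with the highest mean level, had 9.29 to 40.9 CPM in the libraries labelled Bmal1-/-, the highest being replicate 2, and a log2 fold change of 0.02 (adjusted p = 0.97). All 17 E2F, MYB-MuvB and pocket protein genes were tested, with 2 lower and 2 higher. The atypical repressor E2f7 was lower (-3.24, adjusted p = 0.0046) with 12 to 26 counts per library against 0 to 4, and like Kif23 it passed the filter only through the libraries where it is high, so that it could hardly enter the test without differing. The activator E2f2 (1.49, adjusted p = 0.0096) and the histone-binding subunit Rbbp4 (0.48, adjusted p = 0.014) were higher.

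Markers of the cells that such a sample can hold moved with the label as well. Of 10 macrophage and Kupffer cell markers 8 were lower and 0 higher, with a median log2 fold change of -1.07 and a sum of 521 to 652 CPM in libraries labelled Bmal1+/+ and 237.3 to 493.1 CPM in the others. The 2 highest of them were Clec4f (-0.79, edgeR adjusted p = 0.0086) and Csf1r (-0.97, adjusted p = 0.011). Of 8 endothelial markers 5 were lower (sums of 297.2 to 340.0 and 204.6 to 277.6 CPM), while the highest of them, Stab2 (-0.06, adjusted p = 0.74) and Clec4g (-0.26, adjusted p = 0.090), had no call. Of 9 tested fibroblast and stellate cell markers 6 were lower (154.8 to 242.9 and 115.7 to 122.5 CPM), among them Dcn (-0.70, adjusted p = 0.0038) and Lrat (-1.11, adjusted p = 0.0033). These lower markers moved in the same direction as Kif23, Mki67, Top2a, Tk1, Ccna2 and Pcna, and their part in the values of these members was not tested. Epithelial and tumor cell markers had 2 lower and 2 higher, with Krt8 (0.19, adjusted p = 0.36) and Krt18 (0.46, adjusted p = 0.12) the highest in level and without a call.

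Blood lineages, which hold dividing precursors in bone marrow, spleen and thymus, had low markers apart from the erythroid Alas2. The 10 T and NK cell markers summed to at most 8.07 CPM, the 7 B and plasma cell markers to at most 7.04 CPM and the 8 neutrophil and monocyte markers to at most 11.6 CPM in libraries labelled Bmal1+/+ and 47.8 CPM in the others, and of the 4, 5 and 4 markers tested 0 had a call by edgeR's quasi-likelihood test or DESeq2 in the fits of all libraries, whereas the exact and likelihood ratio tests each called 1 T and NK cell marker and 1 B and plasma cell marker and limma-voom 1 of the former. At an unadjusted p below 0.05 there were 2 T and NK cell markers, 1 B and plasma cell marker and 0 of the others. With no filter the T cell receptor gene Trac, named after its values were seen, was lower (-2.64, edgeR adjusted p = 0.029). Among the highest markers were Cd4 (0.92, adjusted p = 0.12) and Lck (-0.77, adjusted p = 0.074), Jchain (-0.53, adjusted p = 0.29), and Csf3r (-0.55, adjusted p = 0.41) and S100a9 (1.26, adjusted p = 0.38). The values of S100a9 and Csf3r turned on replicate 4 of the libraries labelled Bmal1-/-, where S100a9 had 15.2 CPM against 0.554 to 0.712 CPM in the other 3 and 1.08 to 2.82 CPM in libraries labelled Bmal1+/+. Without it S100a9 was lower (-1.53, edgeR adjusted p = 0.016), as were Csf3r (-1.43, adjusted p = 0.0018) and Trac (-2.56, adjusted p = 0.033), and Cd4 was higher (1.15, adjusted p = 0.046). Trac then passed the filter only through libraries labelled Bmal1+/+, where it is high, so that it could hardly enter the test without differing. Lck (-0.73, adjusted p = 0.14) and Jchain (-0.86, adjusted p = 0.087) still had no call. Of the 8 erythroid markers found, Alas2 of heme synthesis was higher (2.49, adjusted p = 1.5e-04), Klf1 had -0.19 (adjusted p = 0.60), and the defining markers Hemgn and Epb42 were at 0 in all libraries. The hepatocyte markers Alb (-2.10, adjusted p = 6.8e-05) and Trf (-0.18, adjusted p = 0.76) were the highest of all, and of their list of 12, 1 was lower and 2 higher. Trf had 20284 CPM in that same replicate and 5346 to 6390 CPM in the other 3, against 9994 to 11667 CPM in libraries labelled Bmal1+/+, and without the replicate it was lower (-0.86, edgeR adjusted p = 0.0011). Which of these cells carried the member transcripts was not tested.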

How the data were processed

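Paired-end RNA-seq of 8 libraries, 4 per genotype label, was used, grouped by the labels' descriptions. Per the study's methods, the authors mapped reads to GRCm38 with HISAT2 and counted fragments per gene with StringTie, and they deposited these raw whole-number counts. A column of FPKM, scaled by the authors to exon length and library total, was used here for levels between genes and in 1 alternative. The submitters' processing notes instead name CASAVA 1.8 and TopHat2 2.0.6 for mm10, and the strand setting is not given in the sources used here. Symbols and positions came from a GENCODE annotation of GRCm38, which matched 99.5% of 55487 identifiers.

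Counts were filtered (filterByExpr, which asked for 0.652 CPM in 4 libraries), scaled by TMM and tested with edgeR 4.0.16 (R 4.3.3, quasi-likelihood test, prior count 0.125, Benjamini-Hochberg adjustment over 14353 genes, common dispersion 0.0506). A call is an adjusted p below 0.05. Intervals are 95% normal intervals from the standard error, which is the log2 fold change divided by the root of F. They leave out the limited degrees of freedom of the test and so are narrower than it implies. Mcm5, for example, had an interval of -1.12 to -0.0104 at an unadjusted quasi-likelihood p of 0.074. The test was tested on simulated data. Alternatives were DESeq2 1.42.0, upper-quartile and library-size scaling, edgeR's exact and likelihood ratio tests, limma-voom (limma 3.58.1), other filters, a prior count of 2, the replicate number as a block, the rule of the methods and leaving out each library. Added after the data were seen were limma on log2(FPKM + 0.1) and the markers without replicate 4 of the libraries labelled Bmal1-/-. Plots used matplotlib 3.10.9 in Python 3.11.15.

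Library totals were 14054825 to 18449143, so that a count of 3 was worth 0.167 to 0.213 CPM. No libraries of a label were duplicates of each other (chi-square per degree of freedom of at least 18). The members, the role groups, the wider lists and the marker lists were chosen with earlier results of these data known. The genes named are all 39 members, up to 3 called genes with the lowest adjusted p of each wider list (or its gene with the highest mean level), the 2 highest genes of each marker list and those at 0, genes that check the labels, and genes that overlap a member. The result of 1 gene that this rule names is not reported here. Fap and Trac were named after their values were seen.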

Additional observations from a re-analysis of the deposited data

Results flagged for a closer look

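Among 52 groups of 4 libraries, the 25 tested members and the sum of all 39 in each label, 3 held a library far from the others by Dixon's criterion, where chance alone flags about 1 group in 20. Mcm6 had 9.24 CPM in replicate 4 of label Bmal1+/+ and 6.62 to 6.92 CPM in the other 3. Tk1 had 44.6 CPM in replicate 1 of label Bmal1+/+ and 36.3 to 36.8 CPM in the other 3. Ccna2 had 1.25 CPM in replicate 1 of the libraries labelled Bmal1-/- and 0.678 to 0.762 CPM in the other 3.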

How the results depend on the processing

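Depth limits the weakest members: 14 of 39 had too few counts for the test, and of the 25 tested 19 had a mean under 5 CPM. Of the values of single members under the alternatives, 474 kept their direction and their side of the threshold, 15 lost and 11 gained a call, and 16 changed sign, all of them values without a call. The count of 6 members lower was 4 to 7 under every alternative but the rule of the methods, which gave 3. The 1 member higher became 2, with E2f1, under library-size scaling, the likelihood ratio and exact tests, limma-voom, a minimum of 10 counts in every library and limma on log2 FPKM, and 0 under the rule of the methods (adjusted p of E2f1 0.029 to 0.13 over its alternatives). Over all genes, that rule gave 1250 lower and 776 higher. Wider lists had 3 genes higher with no filter, a minimum of 10 counts or of 1 CPM, and 1 under the rule of the methods. Leaving out 1 library at a time gave 4 to 6 members lower and 1 to 2 higher (2 without replicate 4 of label Bmal1+/+, with Aurka), 1893 to 2502 genes lower and 1706 to 2212 higher in all, and 6 to 10 genes lower and 3 to 7 higher in the wider lists (3 without replicate 1 of label Bmal1+/+ or replicate 2 of the libraries labelled Bmal1-/-).

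With the replicate block 5 members were lower, Ccna2 losing its call (adjusted p = 0.066), and 1 higher, and 5 genes of the wider lists were lower and 3 higher. The libraries share only a number: deviations of same-numbered libraries correlated with r of -0.0642, 0.063, 0.0435 and 0.0362 across genes, which are not independent replicates. Under the block Kif11 was 0.00921, and it also turned sign under library-size scaling (0.0098), limma-voom (0.0167) and limma on log2 FPKM (0.0224). Signs turned when 1 library was left out for Kif11 (-0.162 to 0.180), Mcm2 (-0.00985 to 0.228), Mcm4 (-0.227 to 0.0872), Rrm1 (-0.0442 to 0.0918), Ccne1 (-0.0573 to 0.885) and Cdca8 (-0.525 to 0.0428). The log2 ratio of summed member levels was -0.215 without Tk1, and none was taken without both Tk1 and Pcna. Ccna2 also lost its call with DESeq2 (adjusted p = 0.055) and with no filter (0.078).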
